A study of Mus musculus with 6 samples.

Results

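The Hippo pathway and its readout were followed in MB49 cells through 10 genes, taken by name from the 54532 genes of the deposited count table: the 4 targets Cyr61, Ctgf, Ankrd1 and Amotl2, and 6 genes of the pathway itself, Yap1, Wwtr1, Tead1, Tead3, Tead4 and Lats2. All 10 symbols were found. MB49 is a mouse bladder cancer line, used here in a form that carries the Y chromosome. It was edited with CRISPR into 2 groups of 3 libraries of poly-A RNA: Y-KO, labelled as a knockout of Y, and Y-Scr, which received a guide RNA without a target. Both groups went through the same transduction, were sorted on the red fluorescent protein tRFP and were grown from single cells. The guide behind Y-KO, and whether the libraries of a group came from 1 clone or several, are not stated in the labels, so p-values measure only the spread between these libraries, which may be technical.

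In the Hippo pathway, the kinases MST1 and MST2 (genes Stk4 and Stk3) activate the kinases LATS1 and LATS2, which phosphorylate the coactivators YAP (Yap1) and TAZ (Wwtr1) and keep them out of the nucleus. Unphosphorylated YAP and TAZ bind TEAD transcription factors on DNA and switch on genes such as Cyr61, Ctgf, Ankrd1 and Amotl2. Several products of these genes, LATS2 and AMOTL2 among them, hold YAP and TAZ back in turn, and the pathway reads cell contact, polarity and tension. Messenger RNA levels report neither the phosphorylation nor the location of YAP and TAZ, neither of which was measured here.

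The DNA before the start sites of these genes is shown first, since TEAD proteins are known to bind the bases CATTCC, or GGAATG on the other strand. Promoter windows of 300 bases (250 before to 50 after the start site, RefSeq, GRCm38.p6) were found for 7 of the 10 genes; Ctgf, Tead1 and Tead4 had no entry. Each of the 7 held CATTCC on one of the strands in at least 1 of its windows, and so did 9 of their 11 windows. Windows of a gene can overlap, and the 2 of Wwtr1 hold the same match. Of all 32851 windows tabulated, 14.7% held CATTCC, and 16.6% of the 27025 genes had it in at least 1 window. The AP-1 motif TGANTCA was in 7.81% of all windows and the CArG box of SRF, searched by its consensus, in 1.63%. Neither was in a window of the 7 genes. A match describes the letters in the window and does not show that a TEAD protein binds there. The 250 bases before the start site are printed for the 3 targets with an entry, 5′ to 3′ on the strand of the gene, with the TEAD motif in capitals. They lie at chr3:145649986-145650235 (Cyr61, minus strand), chr19:36119845-36120094 (Ankrd1, minus strand) and chr9:102717554-102717803 (Amotl2, plus strand). Start sites are those of RefSeq and can differ from the gene ends in the count table. The Amotl2 stretch lies inside the gene as counted, which starts at 102716672.
Cyr61: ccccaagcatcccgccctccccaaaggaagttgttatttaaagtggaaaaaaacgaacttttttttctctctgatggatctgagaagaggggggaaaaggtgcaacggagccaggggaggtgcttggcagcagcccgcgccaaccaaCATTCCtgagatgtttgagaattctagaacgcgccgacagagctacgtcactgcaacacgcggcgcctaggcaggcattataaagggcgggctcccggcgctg
Ankrd1: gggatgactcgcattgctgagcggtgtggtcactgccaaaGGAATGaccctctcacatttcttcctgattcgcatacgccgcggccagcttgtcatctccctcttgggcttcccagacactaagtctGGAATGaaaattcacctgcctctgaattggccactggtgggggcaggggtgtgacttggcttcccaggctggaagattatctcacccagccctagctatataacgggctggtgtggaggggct
Amotl2: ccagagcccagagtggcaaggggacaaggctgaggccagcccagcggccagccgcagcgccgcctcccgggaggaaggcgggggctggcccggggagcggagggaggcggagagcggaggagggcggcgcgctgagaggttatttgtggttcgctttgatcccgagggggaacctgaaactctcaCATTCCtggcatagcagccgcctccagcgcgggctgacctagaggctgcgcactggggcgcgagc
In Cyr61 the motif began 103 bases before the start site and in Amotl2 65 bases before it, both as CATTCC. Ankrd1 held a pair of matches, 210 and 123 bases before the start site, both as GGAATG.

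The 4 pathway genes with an entry (Yap1, Wwtr1, Tead3 and Lats2) carried the same letters, which are shown with flanks in stretches of 30 bases. They lie at chr9:8004720-8004749 (Yap1), chr3:57576029-57576058 (Wwtr1), chr17:28350970-28350999 and chr17:28350701-28350730 (Tead3, from windows at separate start sites) and chr14:57746102-57746131 (Lats2), all on genes of the minus strand. The second Tead3 stretch and the Lats2 stretch lie inside the genes as counted, which begin at 28350817 and 57758388 on that strand.
Yap1: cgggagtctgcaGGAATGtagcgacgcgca
Wwtr1: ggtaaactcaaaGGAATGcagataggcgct
Tead3 (upstream window): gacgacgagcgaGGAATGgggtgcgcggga
Tead3 (second window): ccgggctCATTCCgtaCATTCCggccatcc
Lats2: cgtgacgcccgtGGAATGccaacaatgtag
The matches in Yap1 and Wwtr1 began 141 and 136 bases before the start site. The second Tead3 window held CATTCC at 123 and at 114 bases before its start site and, outside the stretch printed, GGAATG just after it, and the Lats2 match lay just after the start site. The motif was in windows of genes that fell in Y-KO (Cyr61, Ankrd1, Amotl2), that rose (Yap1) and that did not pass (Wwtr1, Tead3, Lats2).

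The 6 libraries held 15698510 to 24633158 counts, so that 3 counts in a library correspond to between 0.122 and 0.191 CPM, counts scaled to library size. The Y-linked helicase gene Ddx3y, a check of the labels, had 2682, 2748 and 3095 counts in the Y-Scr libraries and 0, 0 and 0 in the others. Of 16 markers of urothelial and epithelial cells, the keratin genes Krt8 and Krt18 were abundant. In contrast, Cdh1, Epcam, Krt20 and Upk3a had 0 counts in all libraries. The other uroplakin genes listed, Upk1a, Upk1b and Upk2, had 0 to 14 counts per group, so the labelled bladder origin was not visible in the uroplakin genes. The summed level of the 16 markers, nearly all Krt8 and Krt18, was 3356 to 3724 CPM in Y-Scr and 4017 to 4323 CPM in Y-KO. Of the 5 tested members of this list, 2 rose and 1 fell. Gata3, a transcription factor gene of urothelial identity, fell by 1.48 ± 0.21 on the log2 scale, from 7.79 ± 0.333 to 2.80 ± 0.767 CPM (SD, n = 3; adjusted p = 1.4e-05, edgeR). The keratin gene Krt19 rose by 2.37 ± 0.23, from 1.41 ± 0.371 to 7.52 ± 0.573 CPM (adjusted p = 1.5e-07, edgeR), Krt8 rose by 0.36, and Krt18 and Krt14 did not pass. Of 9 immune and blood markers, 5 had 0 counts throughout, among them Ptprc, Cd3e, Itgam and Hbb-bs, and the sum, nearly all Cd68, was 108 to 116 CPM in Y-Scr and 95.2 to 101 CPM in Y-KO. The 5 endothelial markers summed to 0.544 to 1.127 CPM in Y-Scr and 0.995 to 1.45 CPM in Y-KO. The 7 fibroblast and muscle markers, with Pdgfrb at 0 counts, summed to 12.6 to 16.3 CPM in Y-Scr and 17.9 to 20.6 CPM in Y-KO. Pdgfra made up most of that sum and rose from 8.67 ± 0.727 to 14.4 ± 0.569 CPM (adjusted p = 0.00018, edgeR). The other 3 tested members did not pass, with Col1a1 and Des at lower means in Y-KO and Dcn at a higher one. The part of other cell types in the results below was not tested.

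In Y-KO, 3 of the 4 targets were lower and none was higher, while 3 of the 6 pathway genes, Yap1, Tead1 and Tead4, were higher and none was lower. The fall was nearly 4-fold for Cyr61 and smaller for Ankrd1 and Amotl2, and the rises were all close to 1.3-fold. Ctgf, the fourth target, was close to absent in both groups. These calls come from edgeR's quasi-likelihood test over 12907 genes with Benjamini-Hochberg adjustment at 0.05, which called 23.0% of all tested genes lower, 20.7% higher and 43.6% in either direction. In bulk RNA, fewer cells that express a gene and less RNA per cell cannot be told apart.

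**Figure D1:**
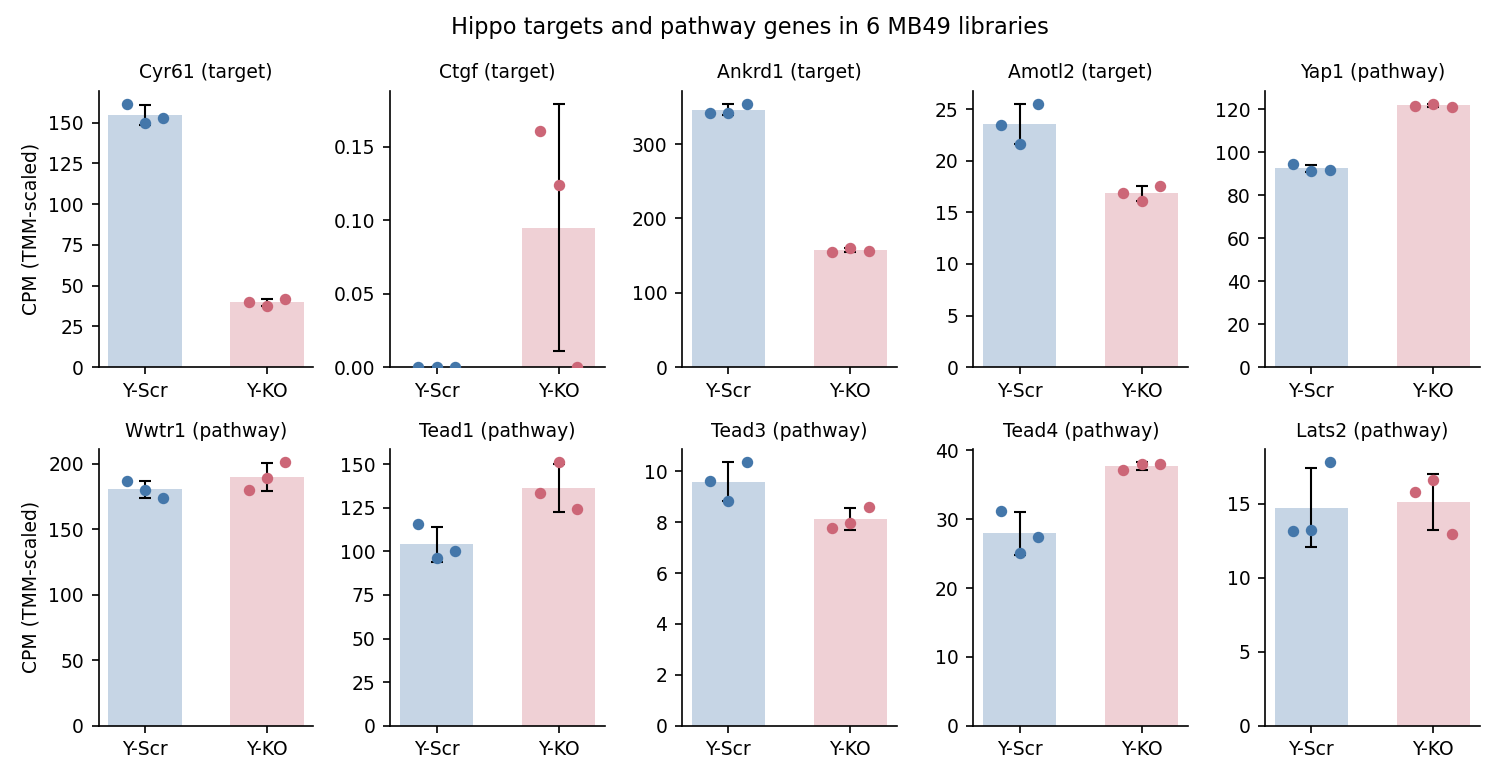
Level of each of the 10 genes in CPM on TMM-scaled library sizes (y axis from 0, each panel on its own scale) in Y-Scr and Y-KO libraries. Points are libraries, bars are means and error bars are SD (n = 3). Cyr61, Ankrd1 and Amotl2 are lower in all Y-KO libraries, Yap1, Tead1 and Tead4 are higher, and Ctgf is at or under 0.161 CPM everywhere.

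Cyr61 (ENSMUSG00000028195, chromosome 3, 145646976 to 145649981, GRCm38) encodes a secreted matrix protein of the CCN family that binds integrins. It stood at 162, 149.9 and 153 CPM in the Y-Scr libraries and at 39.9, 37.7 and 41.9 CPM in the Y-KO libraries. The 3 Y-KO values lay close together and far below the lowest Y-Scr value. From 155 ± 6.15 to 39.8 ± 2.1 CPM (SD, n = 3), Cyr61 fell by 1.96 ± 0.07 on the log2 scale (SE; 95% interval -2.11 to -1.81; adjusted p = 3.5e-14, edgeR). Among all tested genes, 1.38% had a lower log2 change. Y-KO thus held about 0.257 times the Y-Scr level.

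Ankrd1 (ENSMUSG00000024803, chromosome 19, 36111965 to 36119844) encodes an ankyrin repeat protein of the muscle sarcomere and the nucleus. It stood at 342, 342 and 354 CPM in Y-Scr and at 155, 160.4 and 156 CPM in Y-KO. The groups were tight and did not overlap. Ankrd1 fell by 1.14 ± 0.06 (95% interval -1.26 to -1.01; adjusted p = 1.3e-11, edgeR), a level 0.454 times that of Y-Scr. At 89.1 ± 1.6 RPKM (CPM per kilobase of gene length) it was still the most abundant of the 10 genes in Y-KO. Its relatives, Ankrd2 with 0 counts and Ankrd23 with 23 counts over the Y-Scr libraries and 5 over the others, did not pass the filter on low counts.

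Amotl2 (ENSMUSG00000032531, chromosome 9, 102716672 to 102733418) encodes a motin, a junction protein that binds YAP and restrains it. Its values were 23.5, 21.6 and 25.5 CPM in Y-Scr and 16.9, 16.1 and 17.5 CPM in Y-KO. The highest Y-KO library lay below the lowest Y-Scr library, at a smaller distance than for Cyr61 or Ankrd1. Amotl2 fell by 0.49 ± 0.11 (95% interval -0.71 to -0.27; adjusted p = 0.00094, edgeR), and 14.5% of all tested genes had a lower log2 change.

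Ctgf (ENSMUSG00000019997, chromosome 10, 24595442 to 24598683), the CCN gene most often used as a YAP readout, had 0, 0 and 0 counts in the Y-Scr libraries and 3, 2 and 0 counts in the Y-KO libraries. It did not pass the filter on low counts and was not tested. Without the filter its adjusted p was 0.223 (edgeR), and the 5 counts of Y-KO, with 1 of its libraries at 0, do not separate the groups. A count of 0 over the Y-Scr group allows a level of up to 0.0533 CPM (3 counts, counting error only). Cyr61, of the same family, stood in Y-Scr at a level per kilobase at least 4119-fold higher than that limit for Ctgf. Of the 2 CCN genes, one was thus abundant and the other at or near 0 counts in all 6 libraries.

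The rest of the CCN family encodes secreted proteins related to Cyr61 and Ctgf, and 2 of its 4 genes were tested. Wisp1 fell by 0.42 ± 0.07 (adjusted p = 8.5e-05, edgeR), from 111 ± 5.19 to 83.1 ± 5.88 CPM (SD, n = 3). Nov stood at 0.15 ± 0.08 (adjusted p = 0.134) and passed as higher when Y-Scr 1 was left out (0.21) and when the length trend was removed (0.29). Wisp2 and Wisp3 had 1 to 6 counts per group.

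Yap1 (ENSMUSG00000053110, chromosome 9, 7931999 to 8004596) encodes the coactivator YAP. It stood at 94.6, 91.4 and 91.8 CPM in Y-Scr and at 121.8, 122.7 and 121.4 CPM in Y-KO. The libraries of each group were within a few CPM of each other, and every Y-KO library was higher. Yap1 rose by 0.40 ± 0.06 (95% interval 0.27 to 0.53; adjusted p = 3.8e-05, edgeR), a level 1.32 times that of Y-Scr. Among all tested genes, 85.3% had a lower log2 change.

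Wwtr1 (ENSMUSG00000027803, chromosome 3, 57455649 to 57575910) encodes TAZ, the paralog of YAP. Its values were 187, 180.4 and 174 CPM in Y-Scr and 180.1, 189 and 201 CPM in Y-KO, so the groups overlapped. The difference was 0.08 ± 0.06 (95% interval -0.06 to 0.21; adjusted p = 0.348, edgeR). Per kilobase, Wwtr1 was the more abundant of the pair, at 37.7 ± 1.31 RPKM in Y-Scr against 10.002 ± 0.186 RPKM for Yap1. The share of Yap1 in the sum of both, per kilobase, was 20.7, 20.7 and 21.4% in Y-Scr against 25.9, 25.1 and 23.7% in Y-KO. The groups did not overlap in this share, whose log2 ratio of Yap1 to Wwtr1 rose by 0.32 (exact permutation p = 0.1, two-sided, the smallest that 3 against 3 libraries allow; adjusted p = 0.117 over 7 ratios between the genes).

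The TEAD genes encode the DNA-binding partners of YAP and TAZ. Tead1 (ENSMUSG00000055320, chromosome 7, 112679318 to 112906807) stood at 115, 96.2 and 100.3 CPM in Y-Scr and at 134, 151 and 124 CPM in Y-KO. It varied more between libraries than Yap1, and the groups did not overlap. Tead1 rose by 0.39 ± 0.08 (95% interval 0.22 to 0.56; adjusted p = 0.00065, edgeR).

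Tead4 (ENSMUSG00000030353, chromosome 6, 128224288 to 128300823) stood at 31.2, 25.1 and 27.5 CPM in Y-Scr and at 37.1, 38.0 and 38.1 CPM in Y-KO. All Y-KO values were nearly equal and above the highest Y-Scr value. Tead4 rose by 0.44 ± 0.09 (95% interval 0.24 to 0.63; adjusted p = 0.00099, edgeR).

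Tead3 (ENSMUSG00000002249, chromosome 17, 28331671 to 28350817) stood at 9.61, 8.82 and 10.3 CPM in Y-Scr and at 7.78, 7.96 and 8.6 CPM in Y-KO. The Y-KO libraries were the lower ones, with the nearest pair separated by little, and the difference of -0.25 ± 0.15 did not pass (95% interval -0.55 to 0.06; adjusted p = 0.188, edgeR). Tead2, the remaining family member, had 0 counts in all 6 libraries.

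Within each library the TEAD genes could be set against each other. The log2 ratio of Tead4 to Tead3 was 1.54 ± 0.15 in Y-Scr and 2.22 ± 0.06 in Y-KO (SD, n = 3), and that of Tead1 to Tead3 was 3.44 ± 0.16 and 4.07 ± 0.20. Both ratios separated the groups without overlap (exact permutation p = 0.1 each, two-sided, the smallest possible; adjusted p = 0.117). The ratio of Tead4 to Tead1 was -1.90 ± 0.03 in Y-Scr and -1.85 ± 0.14 in Y-KO, and the groups overlapped (exact permutation p = 0.7). Per kilobase, Tead4 and Tead1 each held nearly equal shares of the TEAD sum, 46.0 ± 0.607% and 45.5 ± 0.754% in Y-Scr and 48.3 ± 2.11% and 46.1 ± 2.57% in Y-KO. Tead3 held 8.51 ± 0.811% in Y-Scr against 5.57 ± 0.477% in Y-KO. The sum itself was 18.6, 15.4 and 16.6 RPKM in Y-Scr against 21.3, 22.9 and 21.0 RPKM in Y-KO.

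Lats2 (ENSMUSG00000021959, chromosome 14, 57689662 to 57758388) encodes the kinase that inactivates YAP and TAZ, and it is itself a known target of theirs. It stood at 13.1, 13.2 and 17.8 CPM in Y-Scr and at 15.8, 16.6 and 12.96 CPM in Y-KO. The highest and the lowest of the 6 values each stood apart from the other 2 libraries of their group, and the groups overlapped. The difference was 0.03 ± 0.14 (95% interval -0.26 to 0.32; adjusted p = 0.894, edgeR), and it was 0.20 without Y-Scr 3 and between -0.04 and -0.01 without Y-Scr 1, Y-Scr 2, Y-KO 1 or Y-KO 2. At 14.7 ± 2.67 CPM in Y-Scr and 15.1 ± 1.92 CPM in Y-KO, a change of the size seen in Cyr61 lies outside its interval. A pseudogene on the opposite strand within Lats2 had 46 counts in all libraries, against 1645 for Lats2. It could share reads with Lats2 if counting ignored strand, which the sources used here do not state. The protein-coding gene Gm49361 overlaps Lats2 on the same strand and had 0 counts. How reads lying in both were assigned is not stated either.

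**Figure D2:**
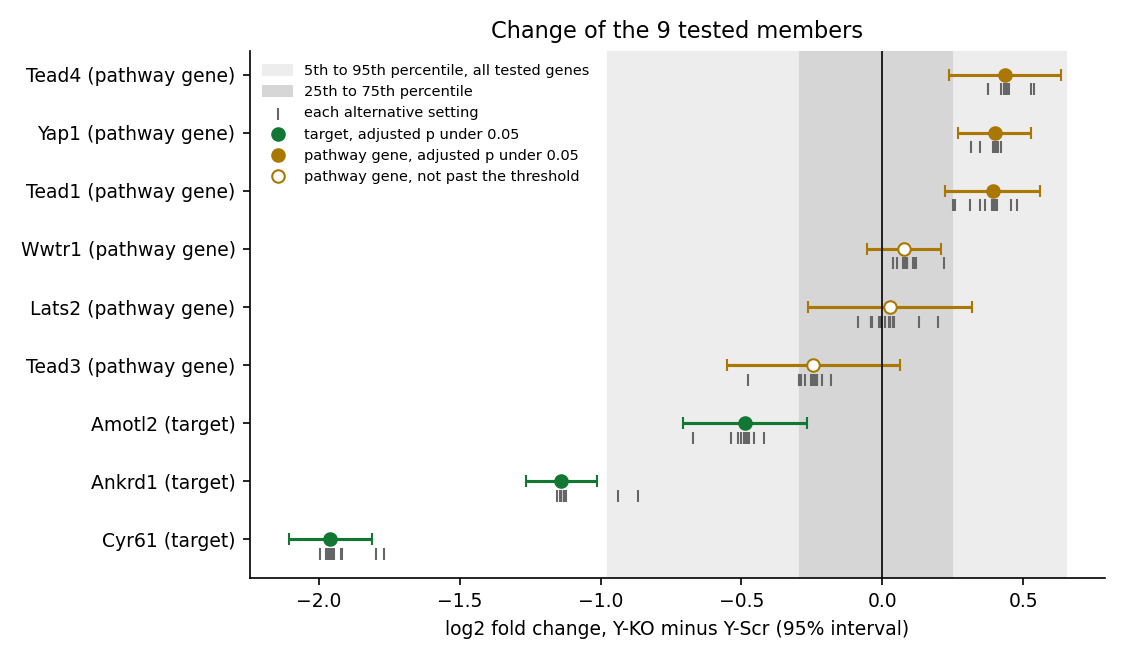
Log2 fold change (Y-KO minus Y-Scr) of the 9 tested genes with 95% intervals from the edgeR fit. Green marks targets and ochre marks pathway genes, open points are not past the threshold, grey ticks are alternative settings and grey bands are percentiles of all tested genes. Cyr61 and Ankrd1 lie below the 5th percentile of -0.97, and the 3 rises lie between the 75th (0.25) and 95th (0.65) percentiles.

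Set side by side, the 3 tested targets had log2 changes from -1.96 to -0.49 with a median of -1.14, and the 6 pathway genes from -0.25 to 0.44 with a median of 0.23, against a median of -0.01 over all tested genes. The mean log2 RPKM of the tested targets exceeded that of the pathway genes by 2.56, 2.62 and 2.59 in the Y-Scr libraries. In the Y-KO libraries the same distance was 1.23, 1.126 and 1.28. Of the 9 tested genes, 7 did not overlap between groups, where 52.9% of all tested genes did not. The targets also fell unequally among themselves. The log2 ratio of Cyr61 to Ankrd1 went from -1.16 ± 0.07 to -1.98 ± 0.10, that of Cyr61 to Amotl2 from 2.72 ± 0.12 to 1.24 ± 0.01 and that of Ankrd1 to Amotl2 from 3.88 ± 0.10 to 3.22 ± 0.09 (SD, n = 3), each without overlap (exact permutation p = 0.1, two-sided, the smallest possible; adjusted p = 0.117).

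**Figure D3:**
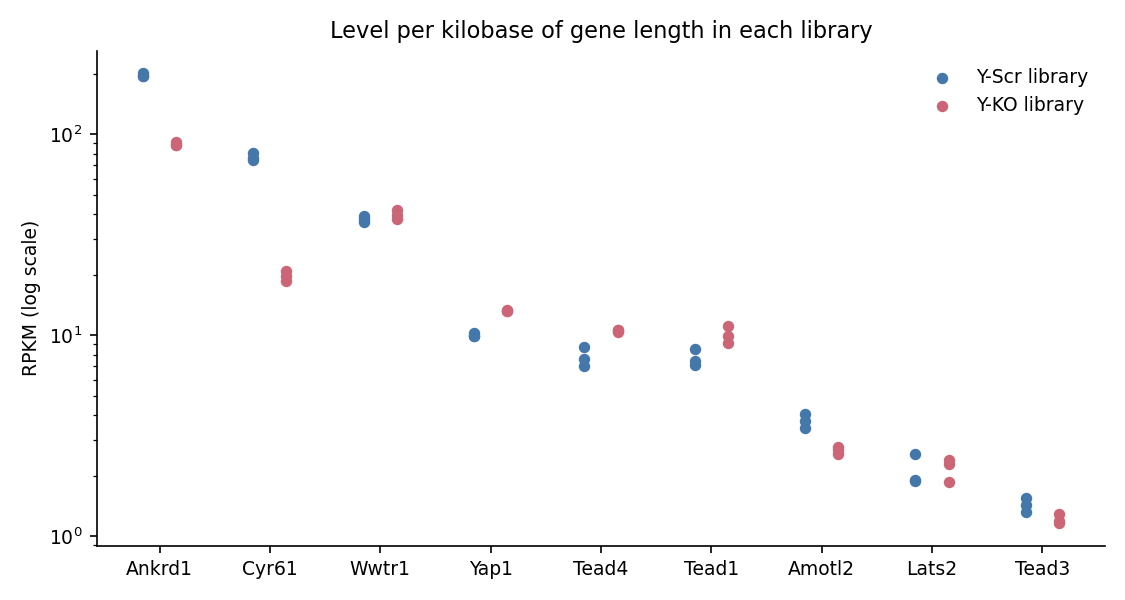
Level of the 9 tested genes per kilobase of gene length (RPKM, log scale) in every library, ordered by the Y-Scr mean. Ankrd1 and Cyr61 lead in Y-Scr, and in Y-KO Cyr61 (19.7) lies below Wwtr1 (39.8).

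Per kilobase, the order in Y-Scr was Ankrd1 (196 ± 4.05 RPKM), Cyr61 (76.7 ± 3.05), Wwtr1 (37.7 ± 1.31), Yap1 (10.002 ± 0.186), Tead4 (7.77 ± 0.854), Tead1 (7.66 ± 0.749), Amotl2 (3.75 ± 0.31), Lats2 (2.11 ± 0.383) and Tead3 (1.43 ± 0.114), as SD with n = 3. Tead4 and Tead1 did not differ beyond their spread, and the other neighbours did not overlap. In Y-KO, Wwtr1 (39.8 ± 2.22 RPKM) stood above Cyr61 (19.7 ± 1.04). Yap1 stood at 13.2 ± 0.0733, Tead4 at 10.5 ± 0.15 and Tead1 at 10.05 ± 1.01 RPKM there, and the last pair overlapped.

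Changes over all genes followed gene length, with a median of -0.14 in the shortest of 5 equal groups of tested genes, which holds Ankrd1, -0.11 in the next, which holds Cyr61, and 0.14 in the longest, which holds Yap1 and Tead1. With each library's trend on length removed, Cyr61 stood at -1.77, Ankrd1 at -0.94, Amotl2 at -0.50, Yap1 at 0.31, Tead1 at 0.26 and Tead4 at 0.54, all past the threshold. With length and GC content removed, Tead1 stood at 0.25, against 0.39 without, and Wwtr1 (0.22, adjusted p = 0.0026, edgeR) and Tead3 (-0.48, adjusted p = 0.0105) passed as well.

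Other known targets of YAP and TAZ were called in both directions. Of 17 further genes of a published YAP/TAZ signature, 9 passed the filter on low counts, of which 5 rose, 2 fell and 2 did not pass, where 20.7% of all tested genes were called higher and 23.0% lower. The share of the list that fell was thus close to that of all genes. Its median was 0.24, against -0.01 over all tested genes. With the length trend removed it was 0.14 against 0.05 over all tested genes. With length and GC content removed it was 0.11 against 0.06. Gadd45a, a growth arrest and DNA damage gene, fell by 1.75 ± 0.08, from 63.7 ± 1.46 to 18.9 ± 0.388 CPM (adjusted p = 4.2e-12, edgeR). Tgfb2, a TGF-beta ligand gene, fell by 1.10 ± 0.20, from 6.7 ± 0.768 to 3.13 ± 0.311 CPM. Dock5, an activator of the GTPase Rac, rose by 0.58 ± 0.12, Asap1, a regulator of Arf GTPases, by 0.41 ± 0.07, Ptpn14, a phosphatase that binds YAP, by 0.39 ± 0.08, the receptor tyrosine kinase gene Axl by 0.25 ± 0.06 and the membrane repair gene Myof by 0.24 ± 0.07. With length and GC content removed, Ptpn14 (0.14) and Myof (0.08) lost their calls, and Myof was also lost with length alone removed (0.12), without Y-Scr 2 (0.20) and without Y-KO 2 (0.18). Of the 8 genes below the filter, 6 had 0 counts in every library: F3, Igfbp3, Fjx1, Foxf2, Nt5e and Rbms3.

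Of 24 listed genes for kinases and scaffolds that act above YAP and TAZ, 23 were tested. Among these, 9 rose, 2 fell and 12 did not pass, against 20.7% higher and 23.0% lower over all tested genes, and the median was 0.14 against -0.01. Rassf1, a scaffold of the MST kinases and known tumor suppressor, had the lowest value and fell by 1.29 ± 0.10, from 43.6 ± 4.22 to 17.8 ± 0.869 CPM (adjusted p = 4.2e-09, edgeR). The membrane adaptor genes Nf2 (merlin) and Wwc2 rose by 0.45 ± 0.07 and 0.55 ± 0.08, and the upstream kinase gene Taok2 by 0.57 ± 0.10. Stk4, which encodes MST1, rose by 0.39 ± 0.08 (adjusted p = 0.00048), while its paralog Stk3 (MST2) stood at -0.04 ± 0.08 and Lats1 at -0.03 ± 0.08. The adaptor gene Sav1 stood at 0.08 ± 0.07 and passed as higher with length and GC content removed (0.29). Under that setting Taok2 stood at 0.29, Wwc2 at 0.35, Nf2 at 0.31, Stk4 at 0.42 and Rassf1 at -1.22, all still called. Counts of calls lay between 7 and 10 higher and between 2 and 3 lower over all alternatives.

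Among 22 genes of junctions, polarity and adaptors that restrain YAP, TAZ or LATS, 17 were tested, of which 8 rose, 1 fell and 8 did not pass, with a median of 0.20. Over all tested genes 20.7% were called higher and 23.0% lower, with a median of -0.01. The polarity genes Dlg5 and Scrib rose by 0.67 ± 0.08 and 0.51 ± 0.07, Dlg5 going from 50.8 ± 4.14 to 80.9 ± 4.18 CPM and Scrib from 117 ± 9.29 to 167 ± 5.79 CPM (adjusted p = 1.7e-06 and 6.2e-06, edgeR). The tight junction gene Tjp1 rose by 0.44 ± 0.07, and Ptpn14, also in the signature, was among the others. Ywhaq, which encodes a 14-3-3 protein, fell by 0.28 ± 0.07 and lost its call with the length trend removed (-0.15). With length and GC content removed, Dlg5 stood at 0.41, Scrib at 0.23 and Tjp1 at 0.40, all still called. The list median was then 0.14, against 0.06 over all tested genes. Over all alternatives, between 6 and 9 of the list were called higher and between 1 and 2 lower. Amotl1, another motin gene, stood at 0.09 ± 0.07, and Amot had 1 count in the Y-Scr libraries and 2 in those of Y-KO. Of the Vestigial-like cofactors of TEAD, Vgll4 (-0.07 ± 0.10) and Vgll2 (-0.75 ± 0.53) did not pass, and Vgll1 and Vgll3 had 0 counts.

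**Figure D4:**
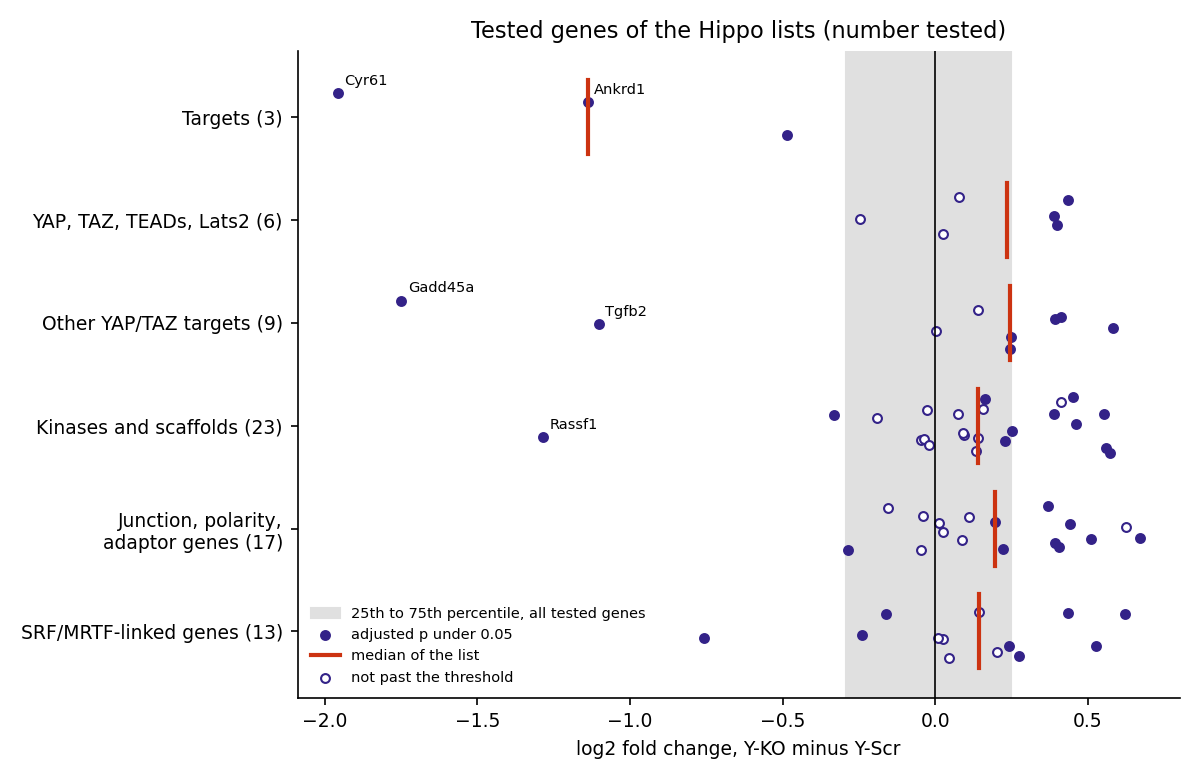
Log2 fold change (Y-KO minus Y-Scr) of each tested gene in 6 lists, with the number tested. Filled points passed the threshold, red bars are list medians, the grey band runs from the 25th to the 75th percentile of all tested genes and vertical spread within a row is only for legibility; genes with a change of at least 2-fold are named. The target median is -1.14 and the other medians lie between 0.14 and 0.24.

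Cyr61, Ctgf and Ankrd1 are also known to respond to SRF and its actin-regulated cofactors, so genes of that kind were listed too. Of 18 listed, 13 were tested, of which 5 rose, 3 fell and 5 did not pass, with a median of 0.14, against 20.7% higher and 23.0% lower over all tested genes, so the share that fell was close to the background. With the length trend removed 10 of the list rose, and higher calls over all tested genes went from 2667 to 3312. Without Y-KO 2, 1 of the list fell. Fhl2, a LIM-domain protein gene, fell by 0.76 ± 0.07, from 164.5 ± 12.1 to 97.3 ± 0.397 CPM (adjusted p = 2.5e-08, edgeR). Vcl, which encodes the focal adhesion protein vinculin, rose by 0.62 ± 0.07, and the SRF cofactor gene Mkl2 by 0.53 ± 0.10. The non-muscle myosin gene Myh9 (0.44 ± 0.07) and the filamin gene Flna (0.24 ± 0.06) rose and lost their calls with length and GC content removed (0.09 and 0.02). Srf itself stood at 0.20 ± 0.09 (adjusted p = 0.0725) and passed as higher when Y-Scr 1 was left out (0.25) and when the length trend was removed (0.34). The smooth muscle genes Acta2, Tagln, Cnn1 and Myl9 had 0 to 17 counts per group.

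The genes whose levels over the 6 libraries were most like the mean log2 level of the targets were Chka (Pearson's r = 0.999), Mark3, Hbegf, Cyp4f16 and Oasl2, out of 9476 searched. This is a description: 942 of them had r over 0.95, since any gene with a clear difference between the same 2 groups comes close. With the group means taken out, Smox (r = 0.989), Rad54l, Cyp4f16, Slc14a1 and Mios were nearest, over the same 6 libraries, and 34 genes had r over 0.95. Their own log2 changes ran from -0.69 for Smox to 0.58 for Rad54l. The mean covered all 4 targets, Ctgf among them. The 3, 2 and 0 counts of Ctgf in the Y-KO libraries thus weigh on the within-group values.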

How the data were processed

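RNA of 6 MB49 libraries (3 Y-Scr, 3 Y-KO, all labelled batch 1) was analysed. The authors deposited raw read counts per gene with gene lengths. The submitters' processing notes name Trimmomatic 0.39, STAR 2.5.2b, DESeq2, featureCounts 1.5.3 and FastQC 0.12.1, and give GRCm39 and mm39 as builds. The deposited gene positions were those of GRCm38 for 98.3% of 54495 genes shared with GENCODE M21, and for 9 of the 10 genes reported, so positions are given as GRCm38.

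Counts were fitted with edgeR 4.0.16 in R 4.3.3 (TMM, filterByExpr, robust quasi-likelihood fit, Benjamini-Hochberg over 12907 genes). CPM and RPKM were computed here on TMM-scaled library sizes, and intervals are 95%. Alternatives were other scalings, DESeq2 1.42.0, limma-voom (limma 3.58.1), other filters, the replicate block, each library left out, and the trend on gene length removed by splines with 4 degrees of freedom. Removing length and GC content together (GC known for 99.9% of tested genes) was added after seeing the data. The fit was tested on simulated counts of 12727 genes. It called 62% of 100 genes changed 1.5-fold and 82% of 100 genes changed 2-fold, with 8 false calls over the whole simulation. Only these genes were changed in it, while 43.6% of tested genes were called in the real data. The rates need not hold there. No library was a copy of another of its group (chi-square over genes, divided by its degrees of freedom, 3.44 to 14.8).

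The genes and lists were chosen with earlier results of these data known, and the lists were written from general knowledge. Named were the 10 genes, Ddx3y, and from each list at least the 5 smallest adjusted p-values, though values of some genes are not reported here. The genes most like the targets were sought among protein-coding genes averaging 5 CPM or more, on log2(CPM + 0.5).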

Additional observations from a re-analysis of the deposited data

How the results depend on the processing

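Over 15 alternatives, Cyr61, Ankrd1 and Amotl2 were called lower and Yap1, Tead1 and Tead4 higher in each, with log2 changes of -1.995 to -1.77, -1.15 to -0.87, -0.67 to -0.42, 0.31 to 0.42, 0.25 to 0.48 and 0.37 to 0.54. The 10 genes gave 3 lower and 3 higher calls, except 4 and 4 with length and GC content removed, and 3 and 3 with each library left out. The median of the tested targets was -0.94 with length removed and -0.87 with length and GC content removed. Lats2 was -0.011 and -0.086 under those settings and -0.0411 to 0.196 with single libraries left out. Stk3 was 0.18 and Lats1 0.0163 with length and GC content removed, and with single libraries left out Stk3 was -0.0751 to 0.00102, Lats1 -0.0582 to 0.0158 and Vgll4 -0.144 to 0.00476. The cause of these changes was not tested. Of all calls, 47.4% were higher, and 57.4% with length and GC content removed.

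Replicate numbers did not pair the libraries (correlations of deviations -0.0642, -0.0344 and -0.024; 0 of 6 libraries correlated best with their own number). With the replicate block, 2627 genes were called lower and 2333 higher, against 2966 and 2667, and the same 6 of the 10 genes were called. Depth limits Ctgf, Tead2 and the listed genes at 0 counts, where 3 counts set the floor.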
